A study of Mus musculus with 24 samples.

Results

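Gene expression of 2 mouse cell lines from the upper reproductive tract was set against that of bone marrow derived macrophages, with all cells kept in medium alone. The members were chosen by label: 4 arrays of the line C57epi.1, 4 of the line Bm12.4 and 4 of macrophages, 12 of the 24 arrays of the series. C57epi.1 came from C57BL/6 mice and Bm12.4 from mice of the strain B6(C)-H2-Ab1bm12/KhEgJ, whose MHC class II beta chain is mutated. Femur marrow of C57BL/6 mice gave the macrophages, grown with GM-CSF, a growth factor that also drives dendritic cells in such cultures. All were cultured in RPMI with 10% serum. There was 1 line per strain, so line and strain cannot be told apart, and the sources used here do not state whether the lines are clones. The other 12 arrays held the same cells after an inflammatory supernatant, that is, conditioned medium at 33% (v/v) from a CD4 T cell clone against Chlamydia, adjusted to 4 ng/ml interferon-gamma. They entered the shared estimate of spread and 1 comparison given last.

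Macrophages are phagocytes of the haematopoietic lineage. The transcription factor PU.1, encoded by Spi1, is needed to form them, and GM-CSF or M-CSF receptors keep them alive. Epithelial cells of the oviduct and uterus are held together by cadherin and claudin junctions and filled with keratins, and they rest on a basement membrane. The tract also has a mesothelial covering, which makes both keratins and Wt1, and a connective tissue stroma, which makes collagen. The comparison asks how tract cells and macrophages, 2 kinds of cell that Chlamydia meets in the tract, differ before any inflammatory signal.

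Levels are log2 values of array intensity, and a difference is the mean of the 2 line means minus the macrophage mean, so that 1 means 2-fold higher in the lines. Of 19938 genes tested with limma, 9393 were called at an adjusted p under 0.05, which is 47.1%. Of all genes, 24.7% were called higher and 22.4% lower in the lines, and the median difference over all genes was 0.005. Counts for gene lists below are to be read against these shares. At 2-fold or more, 1973 genes (9.9%) were higher and 2020 (10.1%) lower. The largest differences lay on the macrophage side: 125 genes were at least 64-fold lower in the lines and 17 at least 64-fold higher. For 28.9% of genes the 8 line arrays did not overlap the 4 macrophage arrays, all above in 13.5% and all below in 15.4%. Higher genes made up 52.5% of the calls, and 66.6% when the arrays were centred on common reference genes, a centring that moved the median of all genes to 0.186. Small differences in either direction thus depend on the scaling. Each line alone gave 8880 calls (44.5%) for C57epi.1 and 8541 (42.8%) for Bm12.4, of which 22.7% and 22.1% of all genes were higher and 21.8% and 20.8% lower. These comparisons share the macrophage arrays.

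A background level was taken from 1194 olfactory and vomeronasal receptor genes, whose 95th percentile was 4.17 in each line and 4.28 in macrophages. It is a guide, since probe sets differ in their own background. For a gene near it in 1 kind of cell, the background limits the measured difference, and the true one can be larger. Of the genes at least 2-fold lower, 353 were under this level in both lines and above it in macrophages. Of those at least 2-fold higher, 142 were under it in macrophages and above it in both lines. With the 90th and 99th percentiles these counts were 231 and 618 for the first and 66 and 457 for the second. Another 3285 genes differed at least 2-fold while above it in all 3 kinds of cell, against 3568 and 2454 with those percentiles. In the lines, media replicates 1 and 2 stood apart from replicates 3 and 4, in cell cycle genes and in others. For named genes with a called mean difference of at least 2-fold, both pairs' values are given where 1 was over 1.5 times the other. Nothing in the labels tells whether the replicates of a group were grown separately. The p-values therefore reflect only how far these arrays spread, which may be technical. A lower level in bulk RNA can come from fewer cells of a type or from less RNA per cell, and these cannot be told apart.

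**Figure D1:**
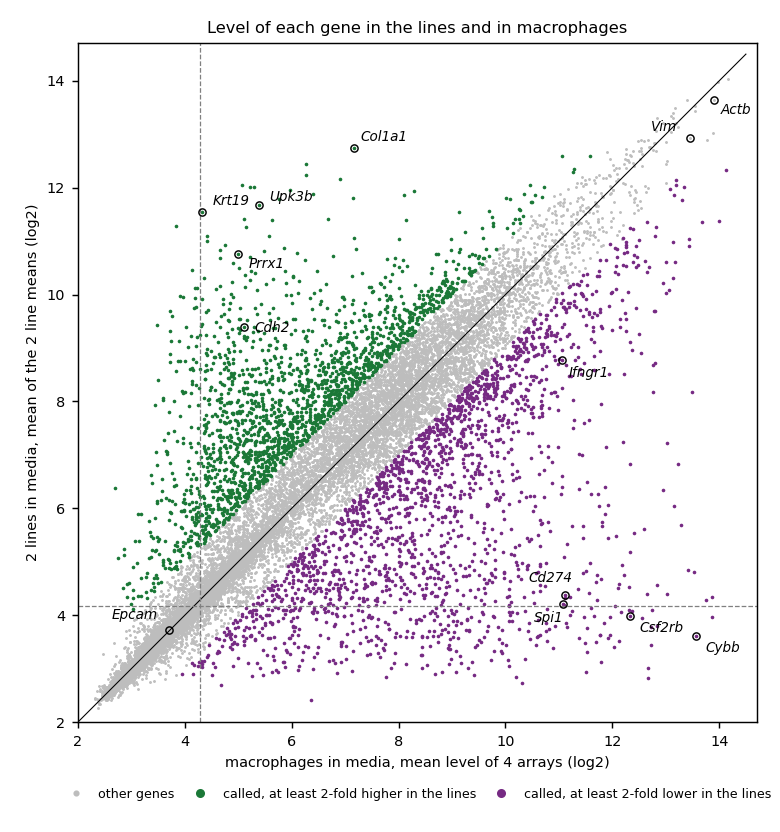
Each point is 1 of 19938 genes, with its mean log2 level in 4 macrophage arrays (horizontal axis) and the mean of the 2 line means (vertical axis), both in media; the diagonal marks equal levels and the dashed lines the background levels. The 2020 called genes at least 2-fold lower in the lines (purple) fan out further from the diagonal than the 1973 higher ones (green), with Csf2rb, Spi1 and Cybb near background in the lines and Epcam at background in both kinds of cell.

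The labels were first set against defining markers. All 10 macrophage markers were above background in macrophages and all 10 were called lower in the lines. Of the 10, 5 were also above background in C57epi.1 and 6 in Bm12.4, or 2 and 1 at the 99th percentile. The lines did not match a full epithelial pattern. Of 10 epithelial markers, 6 were above background in each line and 6 in macrophages, with 3 called higher and 1 lower in the lines. Epcam, the classical epithelial adhesion protein, was at 3.56, 3.79, 3.72 and 3.89 for C57epi.1, 3.61, 3.66, 3.83 and 3.72 for Bm12.4 and 3.72, 3.62, 3.84 and 3.67 for macrophages. These values overlapped throughout, with a difference of 0.01 and a 95% interval from −0.17 to 0.19. The tight junction protein Cldn7 and the epithelial regulators Esrp1 and Grhl2 were also under background in all 3 kinds of cell. Of 9 mesenchymal markers, 9 were above background in both lines and in macrophages, with 6 called higher and 1 lower in the lines. Of 4 mesothelial markers, 4 were above background in all 3 kinds of cell and 4 were higher in the lines. At the stricter 99th percentile, macrophages had 7 of 9 and 1 of 4 above background, and each line 9 of 9 and 4 of 4. They are therefore called the lines here, by name and with no cell type.

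Markers of other cells were examined too. The 12 T and NK cell markers summed to between 7.3 and 7.57 (log2 of the summed linear level) in the lines and 7.58 to 7.68 in macrophages, with Cd3e at −0.26, a call lost in several alternatives. For 8 B cell markers the ranges were 6.88 to 7.23 and 8.14 to 8.31, with Cd22 called lower in the lines (−3.52). For 14 neutrophil and progenitor markers they were 10.4 to 10.84 in C57epi.1, 12.27 to 12.57 in Bm12.4 and 12.33 to 12.48 in macrophages. Of the 14, 8 were called lower in the lines and 1 higher, Cd34, and such bright genes weigh most in a linear sum. The neutrophil marker Ly6g was under background in all groups (3.22 ± 0.21, SD, n = 4, for C57epi.1, 3.17 ± 0.08 for Bm12.4 and 3.26 ± 0.19 for macrophages), whereas S100a8 (−2.01) and the collagenase Mmp8 (−7.88) were higher in macrophages. For 12 endothelial markers the ranges were 8.37 to 8.8 in the lines and 10.32 to 10.56 in macrophages. In the lines 4 were called lower and 2 higher, beside 22.4% and 24.7% of all genes. The lower ones were Vwf (−4.78), Kdr (−4.03), Cdh5 (−1.5) and Pecam1 (−0.5, a call lost with reference gene centring), and the higher ones were Egfl7 (1.5) and Tek (0.78, a call lost in replicates 1 and 2 alone). Platelet chemokine Pf4 was higher in macrophages as well (−6.2), in a list of 8 red cell and platelet markers that summed to 7.74 to 8.58 in the lines and 11.11 to 11.34 in macrophages. For 9 mast cell markers the ranges were 7.16 to 7.49 and 7.27 to 7.51, with Cpa3 called lower in the lines (−0.46), a call lost in replicates 1 and 2 alone and with reference gene centring. For 10 smooth muscle and pericyte markers they were 9.25 to 9.9 and 8.07 to 8.16, with 3 called higher and 2 lower, while the smooth muscle genes Myh11 (0.08) and Cnn1 (0.21) were not called. Dendritic cell markers of GM-CSF cultures (13 measured, summing to 10.93 to 12.01 in the lines and 10.01 to 10.79 in macrophages) were called lower in the lines for 7 genes, among them the chemokine Ccl22 (−4.07), the transcription factor Irf4 (−3.96) and the homing receptor Ccr7 (−3.1). The dendritic cell genes Flt3 (−0.18, adjusted p = 0.116) and Zbtb46 (0.28, adjusted p = 0.0551) were not called. The actin bundler Fscn1, a marker of mature dendritic cells, was higher in the lines (4.72). The part that other cells in these cultures had in the differences was not tested.

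Promoter sequences are shown because the genes furthest apart differed in which short motifs their promoters held. The windows ran from 250 bases before to 50 bases after the annotated starts (RefSeq, GRCm38.p6), and both strands were searched. The letters GAGGAAGT, a core bound by PU.1, were in 13 of 80 promoters of the 100 genes furthest lower in the lines (16.2%). They were in 0 of 81 promoters of the 100 genes furthest higher and in 532 of 19177 promoters of all measured genes (2.77%). The letters GGAATG, a core bound by TEAD factors, were in 23 of 81 promoters of the furthest higher genes (28.4%), 5 of 80 of the furthest lower (6.25%) and 2531 of all (13.2%). The AP-1 letters TGACTCA were in 7 (8.64%), 8 (10%) and 887 (4.63%). Of the 100 furthest genes each way, 70 higher and 72 lower had a promoter in the table. No test was made, the genes having been chosen by their difference, and a match of letters is not a shown binding site. Genes of a single chromosome were passed over in choosing the sequences printed below, so those given are the first among the rest.

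The first 3 genes of the lower group with the PU.1 letters in the 250 bases before the start, each on the plus strand, are the elastase gene Mmp12 (chr9:7344147-7344396), the cathepsin gene Ctsc (chr7:88277835-88278084) and the collagenase gene Mmp8 (chr9:7558179-7558428). Capitals mark the motif, which lies on the opposite strand in these and has its left end 88, 151 and 221 bases before the start.
Mmp12: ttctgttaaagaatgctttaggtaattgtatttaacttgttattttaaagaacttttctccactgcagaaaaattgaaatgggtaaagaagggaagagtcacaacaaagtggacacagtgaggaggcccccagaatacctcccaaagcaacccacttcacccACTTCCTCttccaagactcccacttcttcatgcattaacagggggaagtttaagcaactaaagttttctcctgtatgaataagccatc
Ctsc: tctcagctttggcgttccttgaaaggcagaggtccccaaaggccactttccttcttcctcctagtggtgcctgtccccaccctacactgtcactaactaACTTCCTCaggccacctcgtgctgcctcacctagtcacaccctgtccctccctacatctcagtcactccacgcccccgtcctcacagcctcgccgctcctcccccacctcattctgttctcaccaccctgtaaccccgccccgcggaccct
Mmp8: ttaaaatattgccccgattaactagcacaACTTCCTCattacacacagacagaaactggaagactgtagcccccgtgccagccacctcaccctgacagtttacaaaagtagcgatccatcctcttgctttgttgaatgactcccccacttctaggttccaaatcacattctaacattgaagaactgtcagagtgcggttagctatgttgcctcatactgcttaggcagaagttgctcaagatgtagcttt

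The first 3 of the higher group with the TEAD letters, also on the plus strand, are the mesothelial gene Upk3b (chr5:136038246-136038495), the fibrillar collagen gene Col3a1 (chr1:45311288-45311537) and the small matrix proteoglycan gene Ogn (chr13:49607765-49608014). Capitals mark the motif, on the opposite strand for Upk3b and Col3a1 and on the same strand for Ogn, with its left end 241, 168 and 86 bases before the start.
Upk3b: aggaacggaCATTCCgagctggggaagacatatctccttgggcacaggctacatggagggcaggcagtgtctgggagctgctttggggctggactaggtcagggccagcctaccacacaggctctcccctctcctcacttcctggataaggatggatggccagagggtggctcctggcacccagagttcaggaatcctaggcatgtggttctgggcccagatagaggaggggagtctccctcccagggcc
Col3a1: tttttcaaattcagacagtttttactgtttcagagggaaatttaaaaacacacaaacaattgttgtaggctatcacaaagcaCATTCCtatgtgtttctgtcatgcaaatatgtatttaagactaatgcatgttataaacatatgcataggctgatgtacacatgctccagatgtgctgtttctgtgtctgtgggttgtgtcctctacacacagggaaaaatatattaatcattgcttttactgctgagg
Ogn: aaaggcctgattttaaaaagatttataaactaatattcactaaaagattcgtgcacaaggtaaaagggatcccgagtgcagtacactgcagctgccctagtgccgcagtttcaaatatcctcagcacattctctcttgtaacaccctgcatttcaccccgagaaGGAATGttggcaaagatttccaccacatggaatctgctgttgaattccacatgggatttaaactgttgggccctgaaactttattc

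The macrophage side of the comparison began with lineage regulators and growth factor receptors. Of 24 measured, 22 were lower in the lines and 1 higher, with a median difference of −2.33. Spi1, the gene of PU.1 (probe set 10473809), was at 3.96, 4.22, 4.16 and 4.51 for C57epi.1, 4.07, 4.29, 4.25 and 4.18 for Bm12.4 and 11.21, 11.1, 11.04 and 10.96 for macrophages. All 8 line arrays lay near background and far below the 4 macrophage arrays, a difference of −6.87, SE 0.0889, adjusted p = 4.35e-25. Cebpa (−4.56) and Irf8 (−4.56), which act with PU.1 in the myeloid lineage, and the lymphoid and myeloid regulator Ikzf1 (−3.28) were lower too. Irf5, which drives inflammatory cytokine genes, was lower by different amounts in the lines (−4.47 in C57epi.1 and −2.96 in Bm12.4). The lines differed from each other at Irf5 by −1.52 (SE 0.138, adjusted p = 1.02e-08).

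Among receptors, the common beta chain of the GM-CSF receptor showed one of the largest gaps. Csf2rb (probe set 10425066) was at 4.15, 4.11, 3.91 and 4.1 for C57epi.1, 3.96, 4.14, 3.77 and 3.74 for Bm12.4 and 12.46, 12.17, 12.32 and 12.42 for macrophages. No line array exceeded 4.15 and no macrophage array fell below 12.17, a difference of −8.36, SE 0.098, adjusted p = 7.43e-26. Its near copy Csf2rb2 (−7.46), which may share signal with it, the alpha chain Csf2ra (−4.86) and the M-CSF receptor Csf1r (−7.54) were lower as well. Macrophage-side markers of GM-CSF culture were lower for 15 of 16, with 1 higher and a median of −5.12. They included the lipid-sensing nuclear receptor Pparg (−2.77), the chitinase-like Chil3 (−8.57), the integrin Itgax (−8.1) and the macrophage antigen Adgre1 (F4/80, −7.02). Carbonic anhydrase Car4 (−4.51) varied widely among macrophage arrays, with a mean of 8.42 ± 1.13 (SD, n = 4).

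The genes furthest apart without overlap of arrays belonged to several kinds. Lack of overlap was a condition for the choice of these genes, here and where they are named again below. Higher in the lines were the transcription factor Nfib (7.44, SE 0.117, adjusted p = 1.07e-23), the membrane protein Tm4sf1 (6.98), the procollagen processing enhancer Pcolce (6.72) and the RNA-binding protein Bicc1 (6.69). The annexin Anxa8 (6.58), carboxypeptidase E, Cpe (6.32), and the secreted matrix protein Spon2 (6.18) were also among the first 12. Cd34, known from blood progenitors and also made by endothelium and stroma, was higher in both lines, and more so in Bm12.4 (7.26) than in C57epi.1 (5.36), with a line difference of −1.9 (SE 0.167, adjusted p = 5.44e-09). On the macrophage side stood the C-type lectin Clec4n (−9.83), the granule proteoglycan Srgn (−8.95), Wfdc17 (−9.02) and the inhibitory receptor Lilr4b (−8.67), which were near or under background in both lines.

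**Figure D2:**
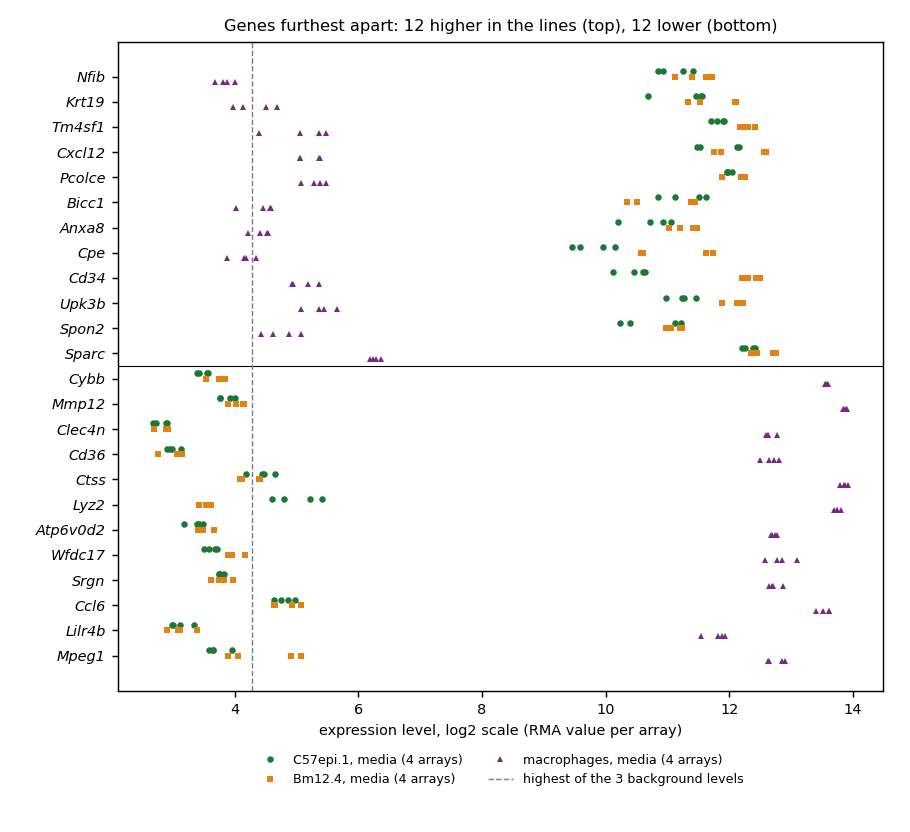
Log2 level on each media array (circles C57epi.1, squares Bm12.4, triangles macrophages) of the 12 genes furthest higher and the 12 furthest lower in the lines; the dashed line is the background level of macrophages. All 24 were picked among genes whose 8 line arrays and 4 macrophage arrays do not overlap, so that separation was set by the choice. In some, such as Lyz2 and Cd34, the 2 lines are separate as well.

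Leukocyte signalling and cytoskeleton genes were lower in the lines without exception: 31 of 31, with a median of −5.25. They carry signals from activating receptors to actin. The pan-leukocyte phosphatase Ptprc (CD45, −7.18), the kinases Syk (−5.55) and Btk (−4.64) and the phosphatase Inpp5d (−6.06) were lower. So were the receptor adaptors Tyrobp (−7.8) and Fcer1g (−8.21) and the actin regulators Lcp1 (−8.28) and Coro1a (−5.03). Not all of the list lay near background in the lines. Lsp1, a leukocyte actin-binding protein, was at 10.57 ± 0.57 (SD, n = 4) for C57epi.1, 6.47 ± 0.53 for Bm12.4 and 12.21 ± 0.07 in macrophages. Nckap1l (Hem1), the blood cell subunit of the WAVE actin complex, was at 7.56 ± 0.25, 4.24 ± 0.08 and 11.86 ± 0.07. The T cell and myeloid adaptor Fyb was at 6.32 ± 0.24, 3.98 ± 0.29 and 8.25 ± 0.2. In these 3 genes C57epi.1 lay between Bm12.4 and macrophages, with line differences of 4.1 (SE 0.271, adjusted p = 3.87e-11), 3.32 (SE 0.104, adjusted p = 4.84e-17) and 2.33 (SE 0.151, adjusted p = 2.74e-11).

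Phagocytic receptors followed the same pattern, with 27 of 31 lower, 1 higher and a median of −5.25. Scavenger receptors Cd36 (−9.66) and Msr1 (−7.18), the Fc receptors Fcgr3 (−7.07) and Fcgr2b (−6.8), the complement receptor C3ar1 (−8.6), the beta-glucan receptor Clec7a (−8.15) and the lipid receptor Trem2 (−6.01) were lower. Receptors of apoptotic cells were not alike: Mertk was lower (−6.17), while its relative Axl was at 10.31 ± 0.11 (SD, n = 4) for C57epi.1, 10.08 ± 0.22 for Bm12.4 and 10.54 ± 0.08 for macrophages and differed by −0.34. The Axl call was lost with quantile normalisation (−0.15) and with reference gene centring. Itgb2, the beta chain of the leukocyte integrins (probe set 10364262), was at 4.69, 4.42, 4.61 and 4.94 for C57epi.1, 6.59, 6.8, 6.75 and 6.66 for Bm12.4 and 13.24, 13.36, 13.24 and 13.31 for macrophages. All 4 Bm12.4 arrays lay above all 4 C57epi.1 arrays, and both lines lay far below macrophages (−7.6, SE 0.0847, adjusted p = 3.43e-26).

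The phagocyte oxidase makes superoxide from a membrane pair, Cybb and Cyba, and cytosolic subunits. Of 8 oxidase genes, 5 were lower in the lines and 2 higher, with a median of −5.77. Cybb (probe set 10603551), the catalytic subunit, was at 3.42, 3.39, 3.57 and 3.55 for C57epi.1, 3.53, 3.82, 3.84 and 3.75 for Bm12.4 and 13.6, 13.55, 13.56 and 13.58 for macrophages. The line arrays spanned 3.39 to 3.84 and the macrophage arrays 13.55 to 13.6 (−9.96, SE 0.0699, adjusted p = 1.19e-29). Since the lines were under background, the background limits the measured size of that gap. Cyba (probe set 10582303), its membrane partner, which also serves other oxidases, was at 9.13, 9.02, 8.93 and 9.12 for C57epi.1, 4.66, 5.19, 5.86 and 5.81 for Bm12.4 and 13.01, 13.08, 12.9 and 13.08 for macrophages. Here the lines parted: C57epi.1 was −3.97 and Bm12.4 −7.64 from macrophages, and they differed by 3.67 (SE 0.186, adjusted p = 3.5e-13). Ncf1 (−7.1) and Ncf4 (−5.95), cytosolic subunits, were near background in both lines. Nox4, a non-phagocyte oxidase, was higher in C57epi.1 alone (1.14, against 0.0 in Bm12.4). Of 10 antimicrobial genes, 4 were lower, with Lyz2 (−9.47) and the pore-forming Mpeg1 (−8.65), and 1 was higher. That was the antiprotease Slpi (2.68), a mucosal product.

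Lysosomal genes were lower in 41 of 44, with 0 higher and a median of −2.2. Enzymes that all cells use were well above background in the lines. The proteases Ctsb (−2.51), Ctsd (−2.61) and Ctsl (−2.57), the asparagine endopeptidase Lgmn (−2.73), the hydrolases Hexa (−3.09) and Lipa (−2.82) and the membrane protein Lamp1 (−1.7) were lower, with levels above 9 in both lines. Others were near background in the lines. Ctss (probe set 10494271), which trims the class II invariant chain, was at 4.65, 4.48, 4.44 and 4.19 for C57epi.1, 4.39, 4.12, 4.41 and 4.08 for Bm12.4 and 13.85, 13.79, 13.87 and 13.92 for macrophages, with no overlap (−9.51, SE 0.145, adjusted p = 6.09e-24). Ctsc (−8.2), Ctsk (−6.9), the membrane protein Laptm5 (−8.27) and the proton pump subunit Atp6v0d2 (−9.28) were also near background, and the acid phosphatase Acp5 was lower (−5.77). Ctsh parted the lines, with a mean level of 3.61 ± 0.09 (SD, n = 4) for C57epi.1, 8.51 ± 1.2 for Bm12.4 and 11.91 ± 0.23 for macrophages. Mitf, a regulator of lysosomal genes, was lower (−4.56).

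Lipid handling genes were lower in 18 of 23 and higher in 2, with a median of −2.82. The lipoprotein lipase Lpl was lower by more in Bm12.4 (−8.94) than in C57epi.1 (−5.29). Cholesterol exporters had unlike patterns, with Abcg1 at −6.62 in C57epi.1 and −6.56 in Bm12.4, and Abca1 at −6.56 in C57epi.1 and −3.58 in Bm12.4. Apoe (−4.44) and the lipid droplet coat Plin2 (−2.98) were lower. Among iron genes, 11 of 16 were lower and 2 higher, with a median of −1.12. Ferritin Fth1 (−0.87) and the haem oxygenase Hmox1 (−2.08) were lower in the lines. Transferrin, Trf, was lower too (−2.79, with −3.41 in the first pair of replicates and −2.17 in the second). The transferrin receptor Tfrc was at 1.37, with 2.13 and 0.62 in the pairs, a call lost in several alternatives. The iron exporter Slc40a1 was not called (0.59, adjusted p = 0.197, interval −0.15 to 1.32). Ceruloplasmin Cp, the ferroxidase that works with it, was higher in the lines (2.5 in C57epi.1 and 5.72 in Bm12.4).

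All 7 leukotriene genes were lower, with a median of −2.94, among them the 5-lipoxygenase Alox5 (−4.24), its activator Alox5ap (−6.06) and the leukotriene C4 synthase Ltc4s (−2.94). Prostaglandin genes were mixed, with 8 of 15 lower and 3 higher and a median of −0.60. Macrophages had more of the thromboxane synthase Tbxas1 (−6.66) and the prostaglandin D synthase Hpgds (−2.9). The lines had more Ptgs2, the inducible cyclooxygenase (3.9 in C57epi.1 and 1.61 in Bm12.4), and the prostacyclin synthase Ptgis (4.04 and 0.7). The prostaglandin-degrading enzyme Hpgd was at 3.21 ± 0.13 (SD, n = 4) for C57epi.1, 9.0 ± 0.55 for Bm12.4 and 3.48 ± 0.19 for macrophages, so that its higher mean came from Bm12.4.

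Chemokines did not all differ in 1 direction: of 21, 6 were higher and 11 lower in the lines, with a median of −1.05. Among the higher ones were Cxcl1 and Cxcl5, which attract neutrophils, and Ccl2 and Ccl7, which attract monocytes. Cxcl1 (probe set 10523151) was at 9.71, 9.39, 10.15 and 9.84 for C57epi.1, 10.41, 10.15, 11.37 and 11 for Bm12.4 and 6.19, 6.22, 5.81 and 6.33 for macrophages. Every line array lay above every macrophage array by more than 3 units (4.12, SE 0.216, adjusted p = 1.01e-13). Cxcl5 was at 4.42 in C57epi.1 and 7.42 in Bm12.4, Ccl2 at 3.23 and 4.34, and Ccl7 at 2.15 and 4.34. Cxcl2, which attracts neutrophils like Cxcl1, was lower in the lines (−1.54, with −1.94 in the first pair of replicates and −1.14 in the second), as was Ccl4 (−1.05, with −1.3 and −0.8). Macrophages had more of Ccl6 (−8.72), Ccl3 (−7.0), Ccl9 (−6.98) and Cxcl16 (−6.7). No chemokine receptor was called higher in the lines: 0 of 16, with 8 lower and a median of −0.56 (1 higher under each other scaling). Ccr2, the receptor of Ccl2 (−6.64), Ccr1 (−6.24) and Cxcr4 (−7.59) were near background in both lines. Cx3cr1 was lower as well (−1.99), and the scavenging receptor Ackr3 was not called (0.26, adjusted p = 0.0859). The stromal chemokine Cxcl12, the ligand of Cxcr4, ran the other way (6.79).

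Cytokines and growth factors gave 10 higher and 11 lower of 30, beside 24.7% and 22.4% of all genes, with a median of 0.04. Il1b, the interleukin-1 beta gene, was lower in the lines (−0.76), which were under background, while macrophages were just above it. Il1rn (probe set 10469816), the interleukin-1 receptor antagonist, was at 4.6, 4.37, 4.33 and 4.5 for C57epi.1, 4.55, 4.8, 4.27 and 4.54 for Bm12.4 and 10.11, 9.43, 8.95 and 9.47 for macrophages, with no overlap (−5.0, SE 0.141, adjusted p = 6.88e-19). Il1a (−5.17), Tnf (−1.98, with −2.38 in the first pair of replicates and −1.57 in the second), Il15 (−3.05) and Osm (−1.12) were lower in the lines. Tslp was not called (0.27, adjusted p = 0.139), and Il6 was under background in all 3 kinds of cell (2.66 ± 0.16, SD, n = 4, for C57epi.1, 2.79 ± 0.11 for Bm12.4 and 2.84 ± 0.19 for macrophages). The beta isoforms of TGF lay on opposite sides. Tgfb1 was lower in the lines (−2.9), whereas Tgfb3 (5.96) and Tgfb2 were higher. Tgfb2 (probe set 10360920) was at 8.6, 8.83, 9.08 and 8.98 for C57epi.1, 8.51, 8.62, 9.19 and 9.12 for Bm12.4 and 4.01, 4.13, 4.76 and 4.75 for macrophages, and the line arrays all lay above the macrophage arrays (4.45, SE 0.162, adjusted p = 9.35e-17).

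Several ligands and their receptors lay on different sides of the comparison. The M-CSF gene Csf1 was slightly higher in the lines (0.85) and its receptor Csf1r lower (−7.54). The second ligand of that receptor, Il34, was not called (0.19, interval −0.05 to 0.42). Hgf was higher in macrophages (−4.85), and its receptor Met was higher in the mean of the lines (1.38), by 2.21 in C57epi.1 and 0.55 in Bm12.4, the latter at the edge of the threshold. The mean was 1.08 in the first pair of replicates and 1.68 in the second. Igf1 was higher in macrophages (−5.69). The stem cell factor Kitl (3.2) and the leukaemia inhibitory factor Lif (2.32) were higher in the lines.

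Toll-like receptor pathway genes were lower for 19 of 22, with 0 higher and a median of −1.7. The endosomal receptors Tlr13 (−7.05), Tlr8 (−5.74) and Tlr7 (−5.55) and their chaperone Unc93b1 (−7.69) were near background in the lines. The co-receptors Cd14 (−4.98) and Cd180 (−6.06) were too. The surface receptors for bacterial lipid were not: Tlr4 was at 8.47 ± 0.69 (SD, n = 4) for C57epi.1, 9.74 ± 0.49 for Bm12.4 and 9.32 ± 0.03 for macrophages, a difference of −0.22 with an interval from −0.65 to 0.22. It was called in replicates 1 and 2 alone (−0.73). Tlr2 was at 7.31 ± 0.58 (SD, n = 4) for C57epi.1, 8.52 ± 0.2 for Bm12.4 and 8.65 ± 0.07 for macrophages, lower in C57epi.1 (−1.34) and with −0.14 in Bm12.4; its call was lost in replicates 3 and 4 alone (−0.37). Tlr3, a sensor of double-stranded RNA, was at −1.36 in C57epi.1 and 0.05 in Bm12.4, and the call for their mean (−0.66) was lost in replicates 3 and 4 alone and with reference gene centring. The inhibitory kinase Irak3 was at −5.0 in C57epi.1 and −0.94 in Bm12.4. Reference gene centring left 15 of the 19 calls in this list.

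Of 17 inflammasome and cell death genes, 14 were lower and 1 higher, with a median of −1.51. The sensors Nlrp3 (−3.1) and Nlrc4 (−2.9) and the adaptor Pycard (−3.93) were lower in both lines. Naip2, Naip5 and Naip6, similar copies that may share signal, were lower too (−2.59, −3.62 and −2.75). Casp1 (probe set 10582985), the protease they activate, was at 3.06, 3.36, 3.39 and 3.69 for C57epi.1, 7.01, 7.26, 8.1 and 8.09 for Bm12.4 and 8.79, 8.64, 8.82 and 8.95 for macrophages. C57epi.1 was at background, while Bm12.4 lay below macrophages (−1.18) without overlap; the lines differed by −4.24 (SE 0.195, adjusted p = 6.17e-14). Ripk3, a kinase of necroptosis, was lower in Bm12.4 (−1.21) and at −0.1 in C57epi.1. The DNA sensor Aim2 (probe set 10351867) was high in the other line, at 8.13, 8.06, 8.39 and 8.06 for C57epi.1, 3.8, 3.73, 3.43 and 3.74 for Bm12.4 and 8.25, 8.09, 8.15 and 8.31 for macrophages. C57epi.1 and macrophages overlapped, and Bm12.4 was at background, with a difference from macrophages of −4.53.

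Of 13 interferon-gamma receptor and signalling genes, 3 were higher and 7 lower, with a median of −0.93. Ifngr1 (probe set 10361897) was at 8.57, 8.49, 8.68 and 8.68 for C57epi.1, 8.97, 8.87, 8.98 and 8.96 for Bm12.4 and 10.9, 10.87, 11.22 and 11.2 for macrophages, lower in every line array than in every macrophage array (−2.27, SE 0.0795, adjusted p = 4.55e-17). Ifngr2 was lower (−1.04), and the target and regulator Irf1 was higher (0.64). Antigen presentation genes were lower for 31 of 42 and higher for 6, with a median of −1.37. In the class II part, 10 of 13 were lower. H2-Ab1, the gene mutated in the Bm12.4 strain, was at 4.61 ± 0.13 (SD, n = 4) for C57epi.1, 4.17 ± 0.1 for Bm12.4 and 12.64 ± 0.25 for macrophages, near background in both lines. H2-Aa (−8.64), the invariant chain Cd74 (−7.15) and the class II regulator Ciita (−2.72) were lower. In the class I part, 12 of 14 were lower, with a median of −1.37 against −2.72 in the class II part. B2m, the light chain of class I, was at −1.33 and the immunoproteasome subunit Psmb8 at −4.54. The peptide transporter Tap1 was at −4.32 in C57epi.1 and −0.93 in Bm12.4. Nlrc5, a regulator of class I genes, was not called (−0.1, interval −0.33 to 0.13), but was at −1.30 by the mean of its probe sets, which disagree. H2-Q4 (−4.32) belongs to a family of similar sequence.

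Ligands that tune T cells gave 9 lower and 5 higher of 15. Cd274 (PD-L1, probe set 10462390) was at 4.05, 4.23, 4.15 and 4.16 for C57epi.1, 4.59, 3.95, 5.13 and 4.79 for Bm12.4 and 11.04, 11.02, 11.16 and 11.22 for macrophages. The line arrays reached 5.13 at most and the macrophage arrays began at 11.02 (−6.73, SE 0.134, adjusted p = 9.59e-22). Pdcd1lg2 (−4.53), Cd86 (−4.43) and Cd80 (−1.7) were lower, and Cd276 (0.89) was higher. Cd40 (−0.32) and the nectin-like ligand Pvr (0.78) were called, but not in each pair of replicates alone. The adhesion molecules ran apart, Icam1 at −1.41 and Vcam1 at 6.02.

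**Figure D3:**
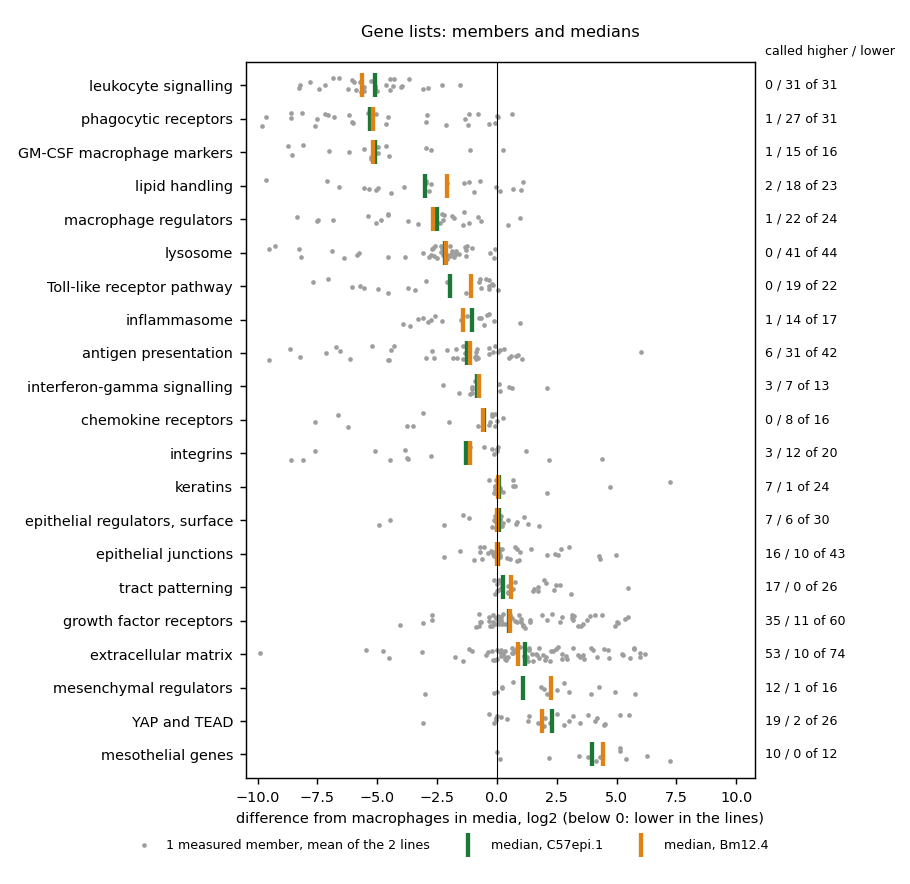
Difference from macrophages in media (log2, below 0 lower in the lines) of each measured member of 21 gene lists, as grey points for the mean of the 2 lines, with the list median of C57epi.1 (green bar) and Bm12.4 (orange bar); at right, members called higher and lower of those measured. Leukocyte signalling genes all lie below 0 (0 higher, 31 lower of 31), and mesothelial genes lie at or above it (10 higher, 0 lower of 12).

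Epithelial genes differed in both directions. Of 43 junction genes, 16 were higher and 10 lower, with a median of 0.04. Of 30 epithelial regulators and surface genes, 7 were higher and 6 lower, with a median of 0.02. By role, 6 of 15 epithelial regulators were higher and 1 lower, and 1 of 15 surface proteins was higher and 5 lower. Of all genes, 24.7% were higher and 22.4% lower. With reference gene centring, 18 junction genes were higher and 5 lower. Cdh1 (probe set 10575052), E-cadherin, was at 4.36, 4.48, 4.16 and 4.37 for C57epi.1, 4.67, 4.17, 4.68 and 4.46 for Bm12.4 and 7.87, 6.74, 5.87 and 6.12 for macrophages. The macrophage arrays were above every line array, though they spread from 5.87 to 7.87 (−2.23, SE 0.254, adjusted p = 8.73e-08). The Cdh1 difference was −2.88 in the first pair of replicates and −1.58 in the second. The tight junction protein Cldn1 (−0.62) and cadherin-11, Cdh11 (−0.72), were lower, the first under background in all cells and the second a call lost in replicates 3 and 4 alone and with reference gene centring. Ocln (0.0) and the desmosomal Dsp (0.0) were at or near background in all cells. Spint1, a protease inhibitor of epithelium, was higher in macrophages (−4.93), as were the laminin receptor chain Itga6 (−4.46) and the syndecan Sdc1 (−2.2).

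The regulator Klf5 (0.8) and the mucin Muc1 (0.47) were higher in the lines, the latter a call lost in replicates 1 and 2 alone. Trp63 (0.26, adjusted p = 0.0531) and the hemidesmosomal integrin chain Itgb4 (0.04, interval −0.18 to 0.26) were not called. N-cadherin, Cdh2 (probe set 10457644), was at 9.25, 9.53, 8.97 and 8.95 for C57epi.1, 9.19, 9.14, 9.96 and 10.19 for Bm12.4 and 5.09, 4.84, 5.01 and 5.47 for macrophages, with no overlap (4.3, SE 0.199, adjusted p = 9.69e-15). The scaffold Tjp1 (4.26), the gap junction protein Gja1 (4.99) and the polarity protein Pard3 (3.02) were higher in both lines. P-cadherin, Cdh3, was higher in C57epi.1 (4.77) and at 0.06 in Bm12.4.

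Keratins were higher for 7 and lower for 1 of 24, with a median of 0.03, and the other 16 were not called. Their share called higher was near that of all genes (24.7%), and 22.4% of all genes were lower. Krt19 (probe set 10391036), a keratin of simple epithelium and mesothelium, was at 11.56, 10.69, 11.47 and 11.54 for C57epi.1, 12.09, 12.11, 11.33 and 11.53 for Bm12.4 and 4.13, 4.68, 3.98 and 4.5 for macrophages. All line arrays lay over 6 units above the macrophage arrays (7.22, SE 0.231, adjusted p = 7.87e-18). Its usual partner Krt8 (probe set 10432918) was at 9.7, 8.75, 9.16 and 9.38 for C57epi.1, 5.45, 5.95, 5.62 and 5.67 for Bm12.4 and 5.68, 4.79, 5.65 and 5.42 for macrophages. C57epi.1 was high in every array and Bm12.4 overlapped macrophages, with a line difference of 3.58 (SE 0.176, adjusted p = 1.92e-13). Krt18 was at 5.1 ± 0.14 (SD, n = 4) for C57epi.1, 4.72 ± 0.08 for Bm12.4 and 5.01 ± 0.21 for macrophages and was not called (−0.1, interval −0.37 to 0.16). Krt7 was at 1.19 in C57epi.1 and 0.17 in Bm12.4. The basal keratin Krt14 was higher in both lines (6.31 in C57epi.1 and 3.14 in Bm12.4), while its usual partner Krt5 was under background in all cells (4.1 ± 0.22, SD, n = 4, for C57epi.1, 4.16 ± 0.07 for Bm12.4 and 4.02 ± 0.13 for macrophages).

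Mesenchymal regulators were higher for 12 and lower for 1 of 16, with a median of 2.04. Prrx1 (probe set 10359624), a homeobox factor of connective tissue, was at 11.27, 11.13, 11.41 and 11.34 for C57epi.1, 10.13, 10.41, 10.06 and 10.35 for Bm12.4 and 5.22, 4.86, 5.01 and 4.87 for macrophages. Each line stood more than 4 units above macrophages, and C57epi.1 above Bm12.4 (5.77, SE 0.111, adjusted p = 5.22e-22). Snai2 (4.94), Twist2 (3.92), Twist1 (3.03) and Zeb1 (2.1), factors that repress E-cadherin, were higher, and Snai1 was higher mainly in C57epi.1 (3.99, against 1.08). Their relative Zeb2 was the 1 that was lower (−3.0). Filament and surface markers did not follow: 3 of 12 were higher and 6 lower. Vimentin, Vim, was at 13.42 ± 0.13 (SD, n = 4) for C57epi.1, 12.44 ± 0.07 for Bm12.4 and 13.46 ± 0.01 for macrophages, and the fibroblast markers Thy1 (−0.06) and Fap (−0.08) were not called. The PDGF receptor Pdgfrb was not called (0.34), though it was in replicates 3 and 4 alone (1.00). Its relative Pdgfra was higher (3.41), with 2.66 in replicates 1 and 2 and 4.16 in replicates 3 and 4.

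Of 12 mesothelial genes, 10 were higher and 0 lower, with a median of 4.22. This list shares Krt19 and Cdh2 with lists above. Upk3b (probe set 10526441), whose promoter is printed above, was at 11.26, 11.47, 10.97 and 11.24 for C57epi.1, 12.23, 12.13, 11.89 and 12.21 for Bm12.4 and 5.44, 5.37, 5.66 and 5.07 for macrophages, with no overlap (6.29, SE 0.14, adjusted p = 7.67e-21). Wt1 (probe set 10474295), the Wilms tumour factor of mesothelium and its underlying stroma, was at 8.88, 9.06, 8.76 and 8.71 for C57epi.1, 9.11, 9.33, 9.02 and 9.62 for Bm12.4 and 4.74, 5.04, 4.81 and 5.1 for macrophages, again without overlap (4.14, SE 0.132, adjusted p = 7.53e-18). Msln (3.82) was higher in both lines, while Bnc1 (4.28 in C57epi.1 and 6.02 in Bm12.4) and Gpm6a (6.75 and 4.04) differed between them. Lrrn4 varied among C57epi.1 arrays, with a mean of 7.42 ± 1.55 (SD, n = 4) against 11.48 ± 0.28 in Bm12.4. Of 26 genes that pattern the tract, 17 were higher and 0 lower, with a median of 0.58. Gata6 (5.47), Nr2f2 (3.11), Emx2 (2.04) and Hoxa10 (1.7) were higher in both lines. Hoxa11 was higher in C57epi.1 (3.03, against 0.04) and Wnt5a chiefly in Bm12.4 (4.4, against 0.87). Of the same list, Wnt4 (−0.12, interval −0.36 to 0.12), Pax8 (0.09, interval −0.11 to 0.29) and Wnt7a (0.05, interval −0.15 to 0.25) were not called. Of 11 hormone receptor and secretion genes, 4 were higher and 2 lower, with a median of 0.03. The secreted chaperone clusterin, Clu, was higher (2.23, with 1.65 in the first pair of replicates and 2.81 in the second). Pgr was under background in all cells (3.76 ± 0.14, SD, n = 4, for C57epi.1, 3.81 ± 0.09 for Bm12.4 and 3.75 ± 0.15 for macrophages) and Esr1 was lower in C57epi.1 (−2.14) and at −0.37 in Bm12.4, with a mean of −1.72 in the first pair of replicates and −0.79 in the second.

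Of 74 extracellular matrix genes, 53 were higher and 10 lower, with a median of 1.4. By role, 17 of 20 collagens were higher and 1 lower, with 8 and 0 of 12 basement membrane genes, 16 and 2 of 21 glycoproteins and proteoglycans, and 12 and 7 of 21 matrix enzymes. Col1a1 (probe set 10380419), a chain of type I collagen, was at 12.51, 12.33, 12.58 and 12.54 for C57epi.1, 13.08, 12.82, 12.91 and 13.12 for Bm12.4 and 6.98, 7.05, 7.27 and 7.36 for macrophages, with no overlap (5.57, SE 0.0887, adjusted p = 1.47e-23). Col3a1 (5.99), Col6a1 (5.75) and Col5a2 (5.21) were higher in both lines. The other type I chain did not behave alike. Col1a2 (probe set 10536220) was at 12.28, 12.2, 12.63 and 12.61 for C57epi.1, 5.98, 5.94, 6.0 and 6.11 for Bm12.4 and 7.55, 7.66, 7.95 and 7.67 for macrophages. C57epi.1 lay above macrophages by 4.72 and Bm12.4 below them (−1.7), so that Bm12.4 had a high Col1a1 signal beside a low Col1a2 signal.

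Basement membrane genes Lamb1 (4.02), Lamc1 (1.12), Nid1 (4.19) and the perlecan gene Hspg2 (3.48) were higher. The type IV collagen gene Col4a1 was higher in C57epi.1 (2.7) and at −0.0 in Bm12.4. Sparc (6.17), biglycan Bgn (5.27) and decorin Dcn (5.98) were higher as well. Fibronectin, Fn1, was at 13.07 ± 0.2 (SD, n = 4) for C57epi.1, 11.2 ± 0.19 for Bm12.4 and 13.19 ± 0.15 for macrophages: C57epi.1 was close to macrophages (−0.12) and Bm12.4 lower (−1.98). Thbs1 was not called (−1.15, adjusted p = 0.0527), with a mean of 9.69 ± 1.78 (SD, n = 4) in Bm12.4. Fbln1, a basement membrane fibulin, was higher in Bm12.4 (5.66) and at −0.22 in C57epi.1. Fmod, a collagen-binding proteoglycan, was higher by 3.6, with 2.49 in replicates 1 and 2 and 4.71 in replicates 3 and 4.

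Among matrix enzymes and their helpers, the following were higher in the lines: the collagen hydroxylases Plod2 (5.75) and P4ha2 (3.18), the chaperone Serpinh1 (4.49) and, in the mean of the lines, the oxidase Lox (4.5 in C57epi.1 and −1.83 in Bm12.4). Plod1, a relative of Plod2, was lower (−1.41). The metalloproteinases Mmp9 (−4.77), Mmp13 (−5.47) and Mmp19 (−4.52) and the urokinase receptor Plaur (−3.14) were higher in macrophages, while Mmp3 (0.12) and Mmp14 (0.26) were not called. The metalloproteinase inhibitor Timp3 was higher in the lines (4.66), and Timp1 was at 0.4, a call lost in several alternatives. Mmp2 was higher by 0.72, a call lost in several alternatives, with 0.10 in replicates 1 and 2. Mmp12 (probe set 10583056), the macrophage elastase, was at 3.76, 4.01, 3.77 and 3.93 for C57epi.1, 3.89, 4.14, 4.02 and 4.15 for Bm12.4 and 13.91, 13.85, 13.84 and 13.89 for macrophages, with no overlap (−9.91, SE 0.0618, adjusted p = 1.86e-30).

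Receptors for matrix were mostly on the macrophage side, with 12 of 20 integrin genes lower, 3 higher and a median of −1.2. Leukocyte integrin chains Itgam (−8.6), Itga4 (−5.1), Itgal (−3.76) and Itgb7 (−3.86) were lower. The fibronectin and vitronectin receptor chains Itga5 (−1.27) and Itgb5 (−2.76) were lower too. The widely used beta chain Itgb1 differed little (−0.55), and Itgav was higher (1.21). The laminin receptor chain Itga3 was higher in both lines (5.7 in C57epi.1 and 3.05 in Bm12.4). Of 15 focal adhesion and caveola genes, 8 were higher and 7 lower, with Parva (5.51), Ehd2 (5.68) and the caveola protein Cav1 (1.42) higher. Vinculin, Vcl, was at 1.27 in C57epi.1 and −0.07 in Bm12.4. Of 17 contractile genes, 6 were higher and 4 lower, beside 24.7% and 22.4% of all genes. Cnn3 (4.74), Cald1 (3.96) and Tpm1 (3.03) were higher, while the smooth muscle genes Tagln (−0.16) and Myl9 (−0.03) were near background in all cells. Myh10, a non-muscle myosin, was at 11.81 ± 0.37 (SD, n = 4) for C57epi.1, 4.7 ± 0.16 for Bm12.4 and 5.16 ± 0.16 for macrophages, so that the lines differed by 7.12 (SE 0.151, adjusted p = 5.59e-20).

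Of 26 genes of YAP and TEAD signalling, which links adhesion and cell shape to transcription, 19 were higher and 2 lower, with a median of 2.12. Of the 15 regulators, 11 were higher and 0 lower. Tead1 (probe set 10556456), the DNA-binding partner, was at 9.98, 10.05, 10.01 and 10.07 for C57epi.1, 10.09, 9.8, 9.9 and 10.22 for Bm12.4 and 4.79, 5.31, 4.9 and 4.46 for macrophages. The 8 line arrays lay within 9.8 and 10.22, and the macrophage arrays reached 5.31 (5.15, SE 0.124, adjusted p = 3.65e-20). Tead2 (4.47) and the coactivators Yap1 (3.46) and Wwtr1 (TAZ, 4.08) were higher too. Of 11 targets, 8 were higher and 2 lower, with Ccn1 at 5.52, Ankrd1 at 4.53, Ajuba at 4.18 and the tissue factor gene F3 at 1.95. Ccn2 was at 2.38 in C57epi.1 and 0.3 in Bm12.4. Of the lower ones, Nt5e was at −3.07. The promoter letters given above and these levels are separate descriptions, and no link between them was tested.

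Of 60 growth factor receptor genes, 35 were higher and 11 lower, with a median of 0.79. Egfr (probe set 10374366), the receptor of epidermal growth factor, was at 9.5, 9.25, 9.95 and 9.84 for C57epi.1, 10.21, 10.27, 11.04 and 11.13 for Bm12.4 and 5.33, 5.36, 4.67 and 5.12 for macrophages. Every line array lay above every macrophage array by almost 4 units or more (5.03, SE 0.17, adjusted p = 2.45e-17). The collagen receptors Ddr2 (5.35) and Ddr1 (3.87), the ephrin receptors Ephb4 (4.12) and Epha2 (3.76) and Erbb2 (3.12) were higher. In the TGF-beta and BMP part, Tgfbr1 was lower (−2.72). The BMP receptor Bmpr1a (4.93), the ligand Bmp4 (6.0 in C57epi.1 and 4.1 in Bm12.4) and the BMP targets Id3 (5.5) and Id1 (3.5) were higher. Tgfbr3 was higher chiefly in Bm12.4 (3.36, against 0.4), with a mean of 1.25 in the first pair of replicates and 2.51 in the second. Inhba, a chain of activin, was lower (−3.11). In the Wnt, Hedgehog and Notch part, Smo (4.39), Fzd2 (3.6) and Gli3 (3.24) were higher in both lines. The Notch target Hes1 was higher (3.14), and the ligand Jag1 was at 1.79 in C57epi.1 and −0.31 in Bm12.4. Notch1 was lower in both lines, with −4.02 in C57epi.1 and −1.44 in Bm12.4.

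Fgfr1 (probe set 10570982), a receptor of fibroblast growth factors, was at 5.04, 5.5, 5.12 and 5.3 for C57epi.1, 8.8, 8.68, 9.24 and 9.43 for Bm12.4 and 7.17, 7.11, 7.05 and 6.82 for macrophages. The 3 kinds of cell did not overlap, with Bm12.4 above and C57epi.1 below macrophages, and the lines differed by −3.8 (SE 0.146, adjusted p = 2.29e-15). Its relative Fgfr2, which takes Fgf7 in its epithelial form, was at 3.55 in C57epi.1 and 1.68 in Bm12.4, with a mean of 2.08 in replicates 1 and 2 and 3.15 in replicates 3 and 4. Fgf7 itself (probe set 10475643) was at 10.41, 10.38, 10.4 and 10.14 for C57epi.1, 3.66, 4.18, 4.54 and 4.09 for Bm12.4 and 3.97, 3.77, 4.14 and 4.02 for macrophages. C57epi.1 alone was high, and Bm12.4 and macrophages overlapped near background.

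Heparan sulphate chains, to which Chlamydia can bind, hang on core proteins that differed by cell. Of 24 core and chain-making genes, 10 were higher and 9 lower, beside 24.7% and 22.4% of all genes, with a median of 0.08. Sdc2 (probe set 10423548) was at 9.02, 8.91, 9.49 and 9.37 for C57epi.1, 9.95, 9.89, 10.73 and 10.69 for Bm12.4 and 4.5, 3.9, 4.11 and 4.32 for macrophages, high in every line array (5.55, SE 0.156, adjusted p = 6.94e-19). Sdc3 (probe set 10508651) was at 4.41, 4.62, 4.36 and 4.23 for C57epi.1, 4.28, 4.18, 4.63 and 4.07 for Bm12.4 and 10.24, 10.38, 10.49 and 10.25 for macrophages, the reverse without overlap (−5.99, SE 0.0973, adjusted p = 2.07e-23). Sdc4 was higher (3.27) and the glypican Gpc1 lower (−2.31). Of the enzymes, the polymerase subunit Ext1 (1.64) and the sulphotransferase Hs6st2 (4.18) were higher in the lines and Xylt1, which starts the chain, lower (−3.44).

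Cell cycle genes depended on the replicates used. Of 19 mitosis genes, 19 were higher in the lines, with a median of 2.23, and of 17 S phase genes 11 were higher and 0 lower, with a median of 1.62. In replicates 1 and 2 alone the medians were 3.56 and 2.81, with 19 and 16 genes called higher. In replicates 3 and 4 alone they were 1.09 and 0.48, with 15 mitosis genes higher, and 4 S phase genes higher and 3 lower. Mki67 (probe set 10568714), the Ki-67 antigen of cycling cells, was at 10.14, 10.12, 9.55 and 9.48 for C57epi.1, 9.7, 9.51, 7.33 and 7.8 for Bm12.4 and 6.13, 7.53, 7.45 and 7.74 for macrophages. Replicates 3 and 4 of Bm12.4 overlapped macrophages and those of C57epi.1 did not, and the difference was 3.04 in the first pair and 0.94 in the second. Cdk1 (2.72 and 0.82 in the pairs), Top2a (3.64 and 1.19) and the nucleotide reductase subunit Rrm2 (3.71 and 0.08) had the same order. Pcna, a clamp for DNA synthesis, turned from 0.48 in replicates 1 and 2 to −1.35 in replicates 3 and 4. Cyclin D genes Ccnd1 (4.02) and Ccnd2 (3.9) were higher throughout, with Ccnd1 at 4.97 in the first pair and 3.06 in the second. The inhibitor Cdkn2a was higher in both lines (1.58 in C57epi.1 and 2.41 in Bm12.4) and Cdkn2b in Bm12.4 (2.12, against −0.21).

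**Figure D4:**
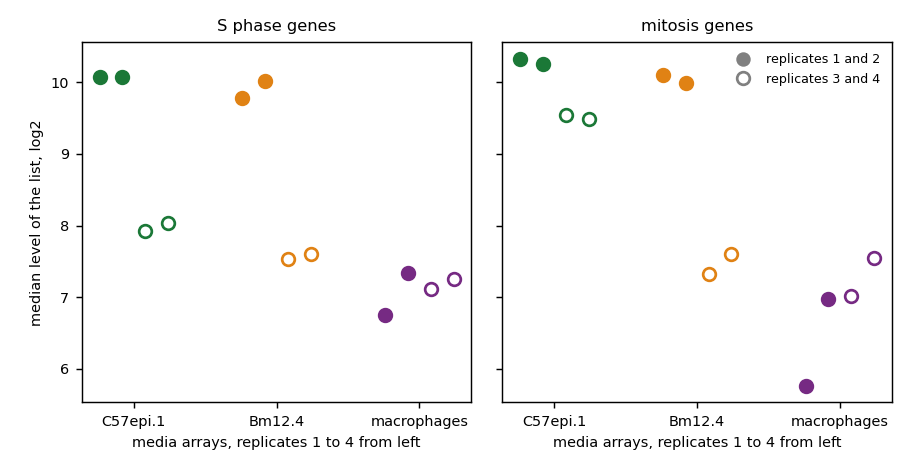
Median log2 level of 17 S phase genes (left) and 19 mitosis genes (right) on each media array, with replicates 1 and 2 filled and 3 and 4 open. In both lines the filled points lie above the open ones, from 10.07 to 7.92 for S phase in replicates 1 and 3 of C57epi.1, and mitosis medians of Bm12.4 replicates 3 and 4 (7.32 and 7.6) reach those of macrophages (5.76 to 7.55).

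Many of the genes above background in all 3 groups were close in both kinds of cell. Of 12972 genes above background in all 3 groups, 8223 (63.4%) had a 95% interval of the difference inside 2-fold. For 6769 (52.2%) this held for each line by itself. With the 90th and 99th percentiles as background, 14643 and 9908 genes were above it in all 3 groups, and closeness was not counted there. Genes only just above background are thus among the 12972. Their differences are compressed, which can raise the share counted as close. The genes named next were the brightest, outside ribosomal protein genes, of those with an interval inside −0.5 to 0.5. Their closeness was therefore set by the choice. Among them, the elongation factor Eef1a1 was at 13.92 ± 0.03 (SD, n = 4) for C57epi.1, 14.02 ± 0.06 for Bm12.4 and 13.97 ± 0.01 for macrophages. Its difference was 0.0, with an interval from −0.09 to 0.1. The small RNA Rn7sk (−0.17 to 0.13), the cyclophilin Ppia (−0.14 to 0.19) and the hexokinase Hk1 (−0.22 to 0.09) had wider intervals than Eef1a1. Quantile normalisation called these 4 genes higher, by 0.26, 0.33, 0.37 and 0.33. Actin, Actb, was lower by a little (−0.26), and its sign turned under quantile normalisation (0.03). Baiap2l1 was at −0.14 by its brightest probe set and at 1.44 by the mean of its probe sets, so its probe sets disagree. Of 10 common reference genes, 3 were higher and 3 lower, beside 24.7% and 22.4% of all genes, with a median of −0.07.

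The 2 lines differed from each other at 4873 genes (24.4%), C57epi.1 being higher in 12% and lower in 12.5% of all genes. In 260 genes they were called against macrophages in opposite directions, with at least 2-fold each way in 35, and the 260 became 401 when the media replicate pairs were fitted as separate groups. C57epi.1 was the higher line in 110 of the 260 and Bm12.4 in 150. Among those with C57epi.1 above macrophages were the smooth muscle actin Acta2, the collagen cross-linker Lox, the actin scaffold Palld and the mitochondrial protein Nipsnap1. Acta2 (probe set 10467124) was at 9.5, 9.28, 9.65 and 9.97 for C57epi.1, 4.92, 5.34, 5.7 and 5.51 for Bm12.4 and 7.01, 7.23, 7.24 and 7.62 for macrophages. Each kind of cell occupied its own range, with a line difference of 4.23 (SE 0.195, adjusted p = 5.95e-14). Lox was at 4.5 in C57epi.1 and −1.83 in Bm12.4 against macrophages, Nipsnap1 at 3.12 and −1.87, Palld at 1.58 and −1.77, and Sdr39u1 at 2.3 and −1.93. Among those with Bm12.4 above were Fgfr1, the small GTPase Rhoj (−1.88 in C57epi.1 and 2.38 in Bm12.4), the glutathione transferase Gstm5 (−1.64 and 2.67), Entpd5 (−3.28 and 1.61), Phf11d (−2.04 and 1.58) and the stress protein Sesn3 (−1.7 and 1.56). For such genes the mean of the lines hides both differences.

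In 1174 genes C57epi.1 was called against macrophages, Bm12.4 was not, and the lines were called apart. Higher in C57epi.1 were the pantetheinase Vnn1 (7.22), Fgf7 (6.36), the RNA export factor Nxf3 (5.64), the glutathione transferase Gsta4 (5.58), the collagen hydroxylase P3h2 (5.32) and Dppa2 (5.3). In Bm12.4 the means were under background for all of these but Gsta4, and none of the 6 genes was called against macrophages there. Lower in C57epi.1 was Gphn (probe set 10396740), the gephyrin scaffold, at 3.5, 3.63, 3.35 and 3.49 for C57epi.1, 7.96, 7.84, 7.86 and 7.63 for Bm12.4 and 8.05, 7.8, 7.92 and 8.02 for macrophages. C57epi.1 was at background, while Bm12.4 and macrophages overlapped. The acute phase gene Saa3 (−5.56), the xanthine oxidase gene Xdh (−5.23), Mettl7a1 (−4.52), the interferon-induced Parp12 (−4.34) and the receptor Calcrl (−3.91) were lower as well. Within pairs of replicates, Bm12.4 was not level with macrophages in some of these. Its difference at Xdh was −0.48 in the first pair and 0.64 in the second. For Mettl7a1 the values were −1.36 and 0.96, and for Parp12 −0.78 and 0.69. The mean of the lines was accordingly −3.04 and −1.68 for Mettl7a1, −2.63 and −1.75 for Parp12 and −3.64 and −2.1 for Saa3.

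In 1093 genes the reverse held, with Bm12.4 alone called against macrophages. Angpt1 (probe set 10428376), a ligand of the vascular receptor Tek, was at 3.39, 3.29, 3.68 and 3.68 for C57epi.1, 10.59, 10.16, 10.73 and 10.66 for Bm12.4 and 3.54, 3.55, 3.87 and 3.73 for macrophages. Bm12.4 alone was high, and the other 2 kinds of cell overlapped near background. Pkhd1l1 (7.9), Capn6 (7.13), the aldehyde oxidase Aox3 (6.56), the IGF-binding protein Igfbp5 (6.34) and the BMP relative Gdf10 (6.27) were also higher in Bm12.4. Lower there were Armcx3 (−5.7), the glutamine transporter Slc38a1 (−5.09), Aim2 (−4.53), Atxn1 (−4.03), B3gnt3 (−3.8) and the annexin Anxa6 (−3.72). For Atxn1, C57epi.1 was called lower too under several alternatives, by −0.52 with quantile normalisation.

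**Figure D5:**
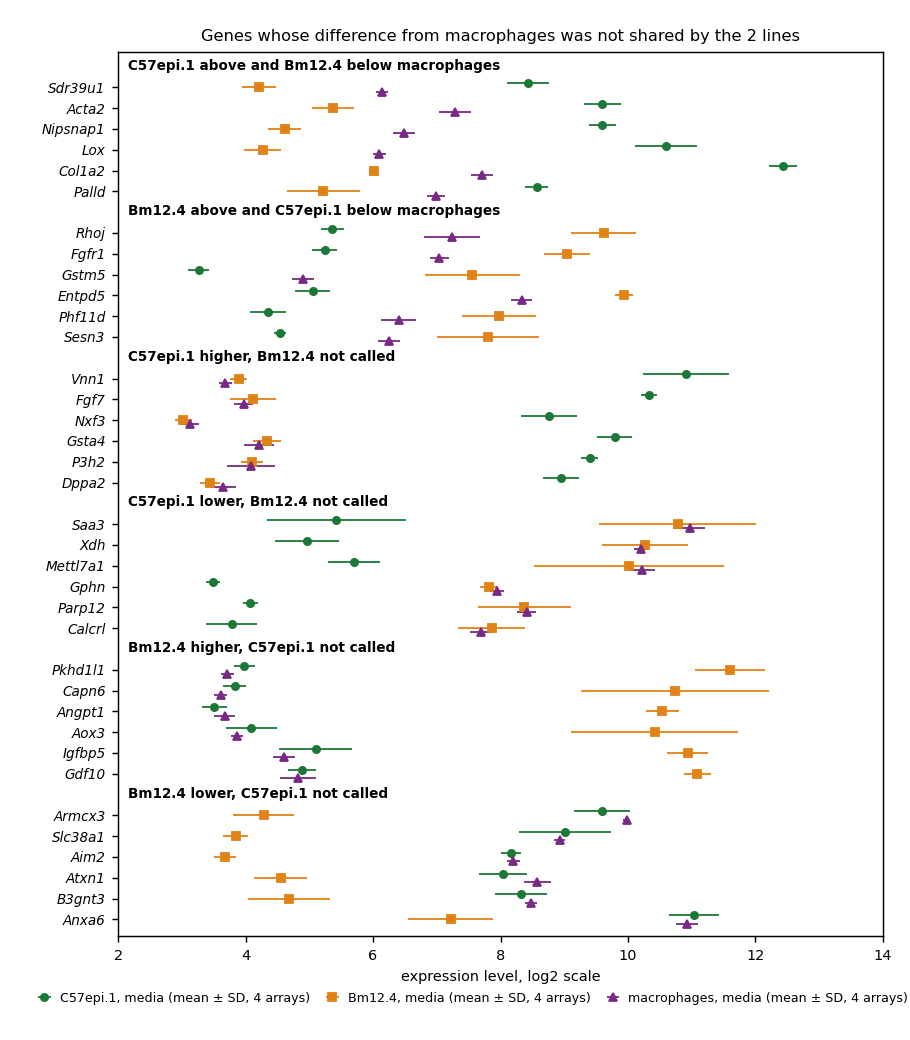
Mean log2 level ± SD (4 arrays) in C57epi.1 (circles), Bm12.4 (squares) and macrophages (triangles) in media, for 36 genes whose difference from macrophages was not shared by the lines. The genes were picked by these patterns. In the upper 2 groups the macrophages lie between the lines. In the lower 4 groups 1 line was called against macrophages and the other was not, as with Angpt1 at 3.51 in C57epi.1 and 10.54 in Bm12.4.

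The difference between lines and macrophages was itself compared between supernatant and media. It moved in 1611 genes (8.08%; 4.27% upward and 3.81% downward), a count that depended on the processing, from 1001 with reference gene centring to 4180 with media replicates 3 and 4 alone. Most of the largest upward moves were in genes with higher levels in the supernatant arrays of the lines. Mpeg1 differed by −8.65 in media, and its supernatant levels were 10.28 ± 0.1 (SD, n = 4) for C57epi.1, 10.74 ± 0.22 for Bm12.4 and 13 ± 0.09 for macrophages, a move of 6.16 with SE 0.228 and adjusted p = 3.71e-14. H2-Aa moved by 4.94, and Cd274 by 3.08. The interferon-induced genes Trim30a (4.58), Apol10b (4.76) and Ms4a4d (4.79) moved the same way. For Mamdc2 the move of 4.32 lay in macrophages, from 10.78 ± 0.24 in media to 6.53 ± 0.62 in supernatant. The largest downward moves were in Ms4a4c (−5.7), Ms4a6b (−5.42) and Ms4a6c (−5.31), genes of a family of similar sequence that were higher in treated macrophages. Endothelin, Edn1, higher in the lines in media (5.11), was at 8.39 ± 0.38 for C57epi.1, 8.94 ± 0.42 for Bm12.4 and 8.38 ± 0.45 in macrophages in supernatant. Slfn1 (−4.04) and the GTPase Gbp2b (−3.88) moved downward too. For Cxcl12 no move was called (−0.64, adjusted p = 0.181).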

How the data were processed

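The authors deposited log2 values for 28853 probe sets on 24 Affymetrix arrays, made with GCOS, RMA and Partek 6.2, per the submitters' processing notes. Per the labels' protocols, 100 ng of total RNA was labelled per array. The series' platform annotation gave 1 gene symbol for 21789 probe sets, several for 1621 and none for 5443, and the last 2 kinds were left out. Where a gene had several probe sets (999 genes), the one with the highest mean was kept, which left 19938 genes. The deposited values carry no detection p-value, and the number of arrays limits the precision.

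limma 3.58.1 (R 4.3.3) was fitted to 6 group means over 24 arrays, which share 1 estimate of spread, with 5 contrasts. Calls had a Benjamini-Hochberg adjusted p under 0.05 over all 19938 genes, and all intervals are limma's at 95%. On simulated data the fit recovered 93 of 100 genes changed by 1 and 100 of 100 changed by 2 (log2), with 4 false calls. The simulated noise was independent between arrays and left out the split between replicate pairs. It therefore does not give the rate of false calls in the real data. Replicate numbers were shared by the groups, and deviations from the group means were compared by number. All 4 pairs of C57epi.1 with Bm12.4 in media correlated, at 0.512 to 0.625. In both lines replicates 1 and 2 stood apart from 3 and 4, and unlike numbers were not compared. Pairing by number therefore cannot be told from that shared split. With the number as a block, calls between the lines went from 4873 to 5265. None changed among the genes named for lines opposed or 1 line alone. The 8 pairs with macrophages ran from −0.177 to 0.148, so lines and macrophages were not treated as paired. Replicates within a media group correlated at 0.967 or more.

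The comparison and the gene lists were chosen with earlier results of these data known. Genes were named by rule: the 12 furthest each way without overlap, set genes and the 6 furthest of each list, the 6 furthest with lines opposed or with 1 line alone, the 10 brightest close to equal, and the 6 whose difference moved furthest in supernatant each way. Genes of the rule that are not printed stand in the counts of their lists or groups. Predicted genes were passed over, and list genes without a probe set of their own were not analysed here. These list members fell outside the rule and were chosen after their values were seen: Bgn, Btk, Cald1, Car4, Ccl22, Ccl7, Cnn3, Col5a2, Ddr1, Ephb4, Erbb2, Fbln1, Fcgr3, Fgfr2, Fmod, Fscn1, Fyb, Fzd2, Gli3, H2-Q4, Hexa, Hpgd, Ikzf1, Il15, Il1a, Inpp5d, Irf4, Irf5, Irf8, Itgal, Lsp1, Mitf, Mmp3, Mmp13, Mmp14, Mmp19, Myh10, Nckap1l, Notch1, P4ha2, Pdcd1lg2, Plod1, Snai1, Syk, Tgfb1, Tgfb3, Tgfbr1, Ctsh, Plaur and Clu. Alternatives covered scaling, probe set choice, filter, array weights, background level, replicate subsets and blocks.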

Additional observations from a re-analysis of the deposited data

Results flagged for a closer look

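Among 34 genes given array by array, 1 array of a media group stood far from the other 3 in a pair of cases, where chance gives about 1 in 20 of the 102 groups examined. Krt19 in C57epi.1 replicate 2 was at 10.69 against 11.47 to 11.56 in the others. Fgf7 in C57epi.1 replicate 4 was at 10.14 against 10.38 to 10.41.

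The lines differed from each other at 4873 genes, by the limma contrast between them. Where they lay on opposite sides of macrophages, C57epi.1 minus Bm12.4 was largest in Col1a2 (6.42), Lox (6.34) and Nipsnap1 (5.0), then Acta2 (4.23), Sdr39u1 (4.22) and Palld (3.35). It was most negative in Entpd5 (−4.89), Gstm5 (−4.3), Rhoj (−4.26), Fgfr1 (−3.8), Phf11d (−3.62) and Sesn3 (−3.26). All of these had an adjusted p under the threshold.

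The difference between lines and macrophages was not the same in supernatant and media at 1611 genes, by limma's interaction contrast. It moved upward in Mpeg1 (6.16), H2-Aa (4.94), Ms4a4d (4.79), Apol10b (4.76), Trim30a (4.58) and Mamdc2 (4.32). It moved downward in Ms4a4c (−5.7), Ms4a6b (−5.42), Ms4a6c (−5.31), Edn1 (−4.82), Slfn1 (−4.04) and Gbp2b (−3.88).

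Probe sets left out of the gene table also differed. Of 5443 with no symbol, 25.2% were called, with 185 at least 2-fold higher and 185 at least 2-fold lower in the lines. Of 1621 with several symbols, 43.1% were called, with 113 higher and 82 lower by that measure.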

How the results depend on the processing

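Of 562 results for single genes, 472 kept their direction and side of the threshold under every alternative run, and 2 reversed: Baiap2l1 was at 0.04 with reference gene centring and 1.44 with the mean of probe sets, and Actb at 0.03 with quantile normalisation. Asking for a change of more than 1.5-fold (limma's treat) left 4223 genes called between lines and macrophages, 1995 higher and 2228 lower, since that test is stricter by construction. Genes whose difference moved in supernatant numbered 3102 with media replicate pairs as separate groups, 4180 with media replicates 3 and 4 alone, 2584 with array weights and 1001 with reference gene centring. Genes with lines opposed numbered 401 with replicate pairs as separate groups, and genes of Bm12.4 alone 1859 with reference gene centring; the cause was not tested. With the background at the 90th and 99th percentile, genes lower with both lines under it numbered 231 and 618, and genes higher with macrophages under it 66 and 457. The share of calls higher in the lines was 52.5%, against 56.6% with median centring, 57.2% with quantile normalisation and 66.6% with reference gene centring.

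Leaving out each of the 12 media arrays in turn gave 8801 to 9525 genes called (4567 to 4988 higher and 4232 to 4546 lower). It gave 8379 to 8993 for C57epi.1, 8041 to 8671 for Bm12.4, 4299 to 5042 between the lines, 1332 to 1816 moved in supernatant and 201 to 274 with lines opposed. With the replicate number as a block, 9672 genes were called between lines and macrophages (5115 higher and 4557 lower), 5265 between the lines and 1888 moved in supernatant. Of the 9393 calls, 9318 were kept in direction with the block, 8419 with the 12 media arrays alone and 8096 with reference gene centring. The block changed no call between the lines among the genes named for lines opposed or 1 line alone, the only ones checked for it. Of 66 list medians, 16 stayed within 1 SD under every alternative. With reference gene centring 34 moved, with genes above background 23, with media replicates 1 and 2 alone 16, with 3 and 4 alone 14, with quantile normalisation 4 and without macrophage replicate 1, 1. Low signal limits what can be measured near background, where differences are compressed.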
